A study of Mus musculus with 3 samples.

Results

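The troponins and 2 enzymes of striated muscle were followed across 3 Agilent 1-colour (Cy3) expression arrays of primary mouse embryonic fibroblasts. The 9 genes are Tnnc1, Tnnc2, Tnni1, Tnni2, Tnnt1, Tnnt2, Tnnt3, Cox6a2 and Ckm, of 20017 named genes on the array. They were matched through the RefSeq accession of each probe, which gave 10 of 39429 probes: 2 for Tnnt3 and 1 for each other gene. The genes were chosen by name, with their signals on these same arrays already known, so the values that chose them are given as a description and no test was run on them.

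The labels trace all 3 groups to the same Rb-/-;ATM-/- fibroblasts of an E10.0 embryo on the C57BL/6J background, so every group is labelled as lacking both the retinoblastoma protein and, at the start, the kinase ATM. One group was given an empty vector, another a vector whose hairpin RNA (shRNA) targets Dnmt1, which copies DNA methylation after replication (cells labelled DNMT1-depleted), and the third a vector for ATM (cells labelled ATM-reconstituted). The labels speak of both transfection and transduction, and selection in puromycin (4 ug/ml, 3 days) was followed by 4 further days of culture. There was 1 array per group, so no difference has a replicate, a standard error or a p-value, and in RNA of whole cultures a change in the number of expressing cells and a change in RNA per cell cannot be told apart.

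Troponin is the calcium switch of the thin filament in striated muscle. It joins a calcium-binding subunit (troponin C), an inhibitory subunit (troponin I) and a subunit that anchors the complex to tropomyosin (troponin T), and each has separate genes by fibre type (slow skeletal, fast skeletal and cardiac, with slow and cardiac fibres sharing troponin C). Cox6a2 encodes the heart and skeletal muscle form of cytochrome c oxidase subunit 6A, and Ckm the muscle creatine kinase that regenerates ATP beside the myofibril. The set is known chiefly from skeletal muscle and heart, where differentiation turns many of its genes on under factors such as the Myod1 and Mef2 families.

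Since the study lowers a DNA methyltransferase, the upstream sequences of some of the genes are shown with each CpG, the substrate of that enzyme, in capitals. RefSeq starts on GRCm38.p6 gave 8 windows of 250 bases upstream for 6 of the 9 genes (Tnnc1, Tnnc2, Tnni1, Tnnt1, Tnnt2 and Ckm). Of those shown, Tnnt1 was detected on all 3 arrays and was highest in the Dnmt1 shRNA cells, Tnnt2 was highest in the ATM-vector cells, Ckm was detected on none, and Ckb, the creatine kinase of other tissues, was detected on all 3. The windows lie at chr7:4515976-4516225 (minus strand, Tnnt1), chr1:135836084-135836333 (plus strand, the first of 2 Tnnt2 starts), chr7:19410844-19411093 (plus strand, Ckm) and chr12:111672339-111672588 (minus strand, Ckb), each written 5′ to 3′.
Tnnt1: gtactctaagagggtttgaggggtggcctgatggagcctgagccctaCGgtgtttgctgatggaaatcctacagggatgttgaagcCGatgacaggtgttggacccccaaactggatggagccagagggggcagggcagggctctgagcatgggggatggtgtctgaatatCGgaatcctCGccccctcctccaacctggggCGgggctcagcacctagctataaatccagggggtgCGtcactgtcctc
Tnnt2: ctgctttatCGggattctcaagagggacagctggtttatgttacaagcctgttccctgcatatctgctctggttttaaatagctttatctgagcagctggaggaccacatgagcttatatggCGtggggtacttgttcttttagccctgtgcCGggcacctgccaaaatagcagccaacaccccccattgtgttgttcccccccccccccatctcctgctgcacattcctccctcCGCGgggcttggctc
Ckm: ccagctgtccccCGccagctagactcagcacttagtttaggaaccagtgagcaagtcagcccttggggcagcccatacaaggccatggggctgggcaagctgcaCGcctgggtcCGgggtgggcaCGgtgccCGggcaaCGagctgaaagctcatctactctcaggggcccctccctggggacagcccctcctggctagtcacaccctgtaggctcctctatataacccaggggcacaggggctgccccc
Ckb: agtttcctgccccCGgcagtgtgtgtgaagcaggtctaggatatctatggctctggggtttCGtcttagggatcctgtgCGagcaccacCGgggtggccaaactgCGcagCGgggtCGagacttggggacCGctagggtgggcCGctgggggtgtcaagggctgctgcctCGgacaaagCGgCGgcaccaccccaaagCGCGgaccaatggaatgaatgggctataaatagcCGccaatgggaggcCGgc
The windows of Tnnt1 and Ckm held 6 CpG each and the first Tnnt2 window 5, against 16 for Ckb and 26 for Cox6a1, the ubiquitous form of the cytochrome oxidase subunit. Tnnc1 and the second Tnnt2 window held 0, Tnnc2 held 3, and the 2 Tnni1 windows held 5 and 6. The median over the 8 troponin and Ckm windows was 5, beside 6 over all 32851 RefSeq windows of that length (27025 genes). The 2 Tnni1 windows overlap and Tnnt2 also gave 2, so the 8 windows stand for 6 genes and are not separate units. The arrays measured no methylation, a relation of CpG count to signal was not tested, and Cox6a2, Tnni2 and Tnnt3 had no window. On either strand, an E-box (CANNTG, the core bound by the Myod1 family) was found in 8 of 8 windows and in 66.2% of all windows, and the MCAT element (CATTCC) in 2 of 8 and 12.6%. The MEF2 site was found in 0 of 8 windows and in 2.92% of all, and the CArG box, the core bound by serum response factor, in 0 of 8 and 1.47%. Overlaps between motifs were not removed, and the absence of letters from such a short window says nothing about the factor.

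Across the series, 63.7%, 68.1% and 63.3% of 20010 named genes with a usable probe were well above background on the empty-vector, Dnmt1 shRNA and ATM-vector arrays. Signals are linear intensities after the scanner software's background subtraction. The 75th percentile to which each array was scaled was 2312, 2061 and 2101, and signals counted as well above background began at 37.8, 25.1 and 32.7. The Dnmt1 probe read 4908, 956 and 3169, a log2 difference from the empty-vector array of -2.19 in the Dnmt1 shRNA cells and -0.49 in the ATM-vector cells. One Atm probe read 430, 366 and 409 and the other did not rise well above background on an array. The Rb1 probe read 541, 782 and 460, well above background on all 3. Where the Atm and Rb1 probes lie relative to the deleted parts or the vector was not known, which leaves them no check of either, and the ATM-vector array is called by its label. That array was alone on slide 2 and scan 2, so the vector and the slide cannot be told apart in any of its comparisons. Of 15 fibroblast markers 14, 15 and 15 were well above background, with the collagen, fibronectin and vimentin genes on in every array. Genes are not ranked by their level, because probes differ in how they bind.

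Of the 9 genes, 7 were well above background in the empty-vector cells, 8 in the Dnmt1 shRNA cells and 8 in the ATM-vector cells. Over all named genes the shares were 63.7%, 68.1% and 63.3%. The 7 on every array were Tnnc1, Tnnc2, Tnni1, Tnni2, Tnnt1, Tnnt2 and Cox6a2. Tnnt3 was on in the Dnmt1 shRNA and ATM-vector cells only, and Ckm was on in none. The software's other flag, for a signal positive and significant against background, gave 8, 9 and 8 of the 9 genes. By that flag 1 Tnnt3 probe was also on in the empty-vector cells and Ckm was on in the Dnmt1 shRNA cells. By the flag used here, every array detected at least 1 gene each for troponin C, troponin I and troponin T, while none detected muscle creatine kinase.

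**Figure D1:**
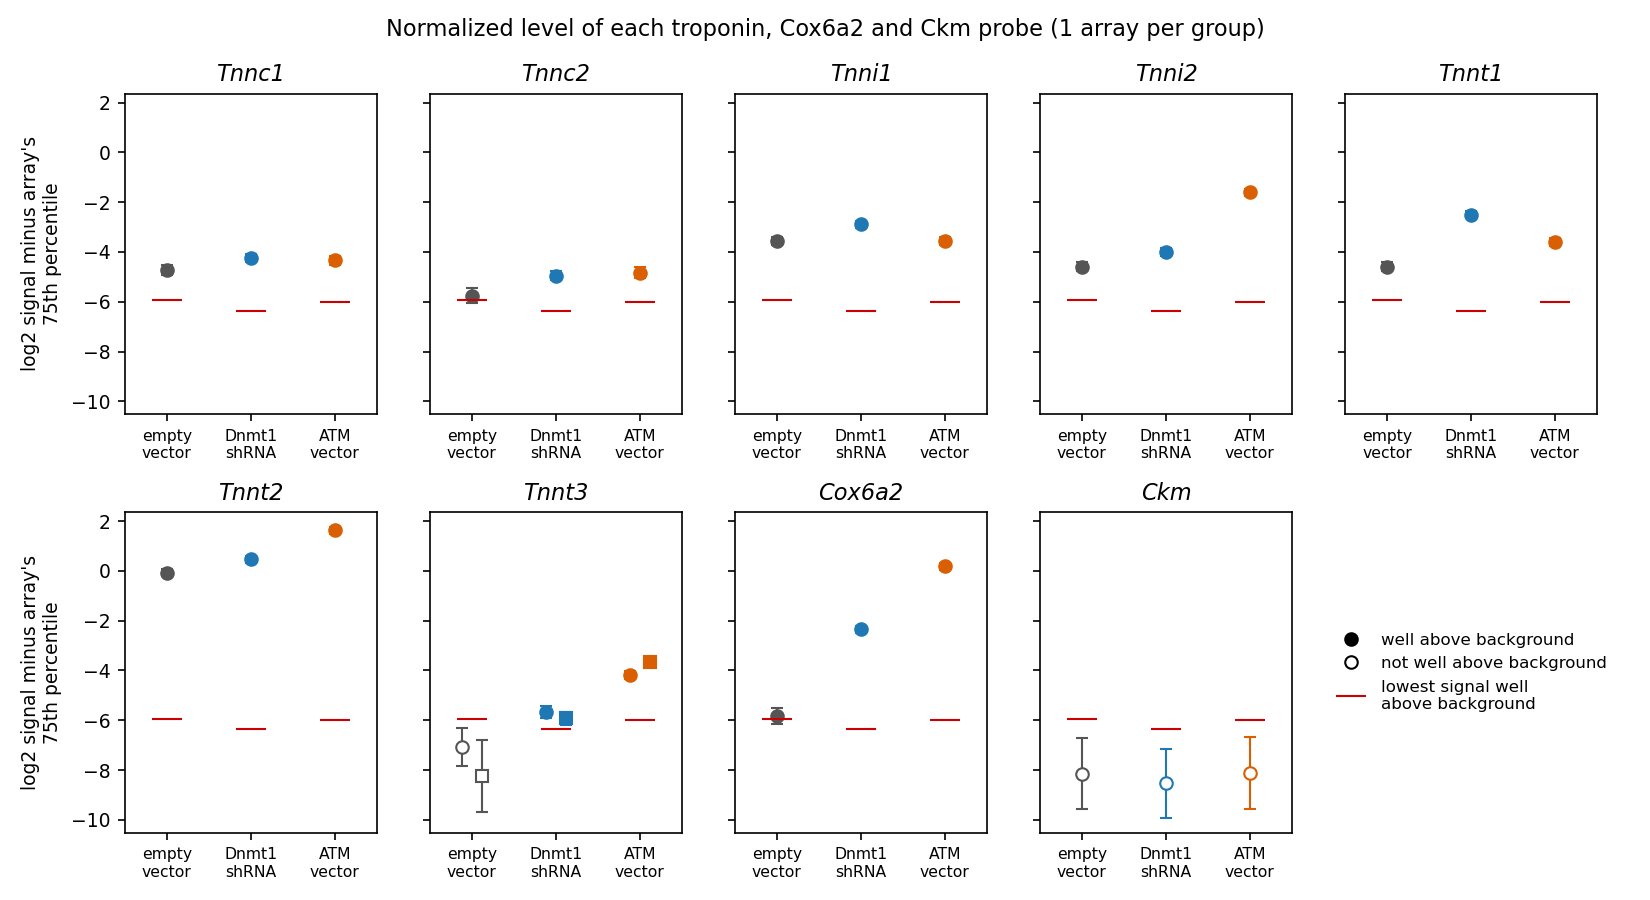
Normalized level of each probe (log2 signal minus the array's 75th percentile) on the 3 arrays, with 1 array per group; filled symbols are well above background, bars are the scanner software's error for the spot, and red lines mark the lowest signal well above background on that array. Cox6a2 and Tnni2 are highest in the ATM-vector cells, Tnnt1 is highest in the Dnmt1 shRNA cells, and Ckm lies under the line on all 3 arrays.

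A gene entered a comparison if 1 of its probes was well above background on either array, and it was called at a 2-fold difference. Where it was dim on 1 array, the difference is a lower bound against the lowest signal well above background there, written "at least". Between the Dnmt1 shRNA and empty-vector cells, 8 of the 9 genes were compared and 2 were at least 2-fold higher (Tnnt1 and Cox6a2), beside 5.19% of 13785 named genes. None of the 8 was lower by that much, beside 1.57%. Their median log2 difference was 0.63, beside -0.01 over all genes compared. Between the ATM-vector and empty-vector cells 4 of 8 were at least 2-fold higher (Tnni2, Tnnt2, Tnnt3 and Cox6a2), beside 7.55% of 13242, and 0 were lower, beside 6.82%. The median was 1.34, beside 0.02. Between the ATM-vector and Dnmt1 shRNA cells the same 4 genes were higher, beside 7.08% of 13871, and Tnnt1 alone was lower, beside 9.89%. The median was 0.65, beside 0.01. Since these genes were chosen with their signals known, and a gene dim on 1 array enters only through the other, nothing is read from these shares about the set. Each array enters 2 of the 3 comparisons, which are therefore not independent.

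**Figure D2:**
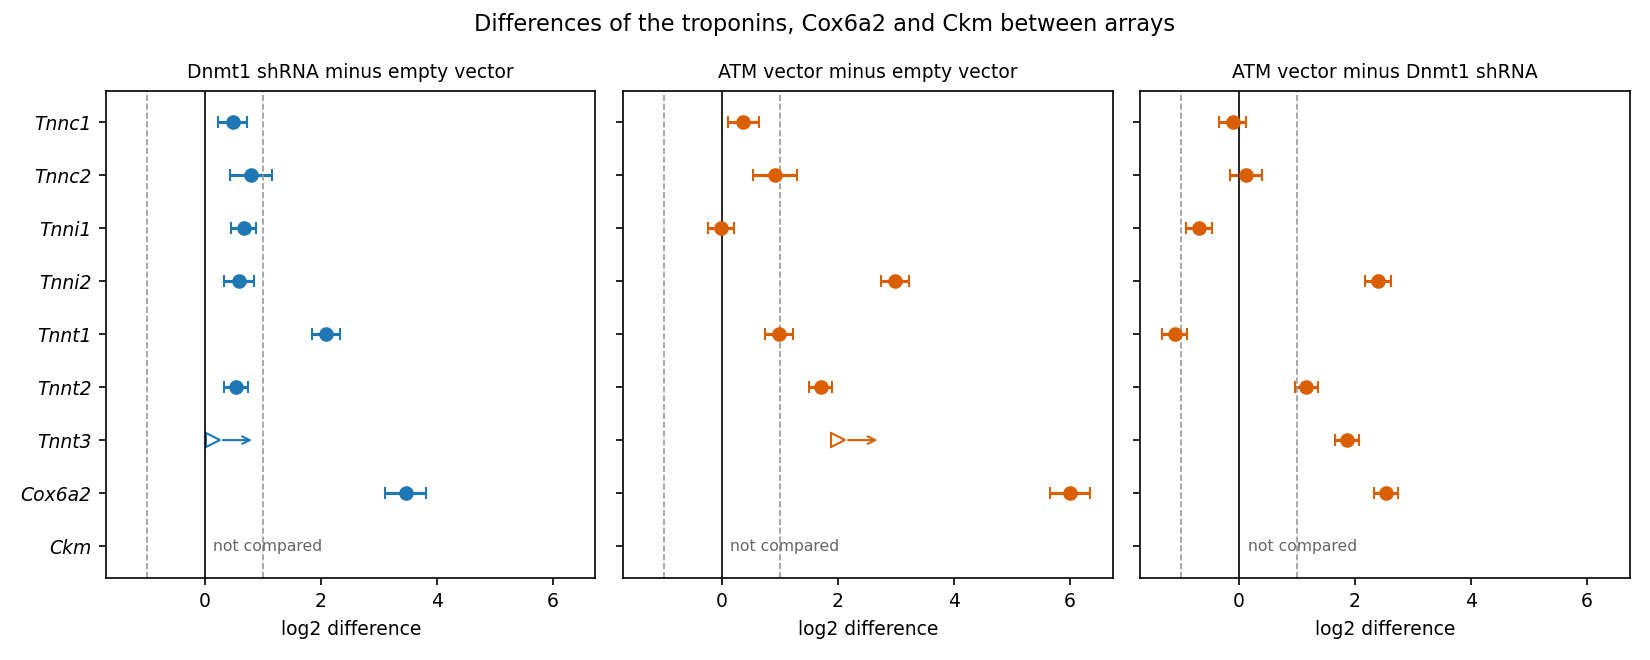
Log2 difference of each gene in the 3 comparisons; points are measured differences with bars for the combined error of both spots from the scanner software, open triangles with arrows are lower bounds, and dashed lines mark a 2-fold difference. Cox6a2 lies at 3.47 and 6.01 above the empty-vector cells, Tnnt1 lies at 2.09 in the Dnmt1 shRNA cells and 0.98 in the ATM-vector cells, and Ckm has no value.

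The scale of error on 1 array came from 3 sources. Repeated spots of a probe had a median SD of 0.046 to 0.051 on the log2 scale, and a root mean square SD of 0.12 to 0.15 for signals from 30 to 400, the range of most of these probes. Different probes of the same gene gave differences with an SD of 0.21, 0.34 and 0.38 in the Dnmt1 shRNA against empty-vector, ATM-vector against empty-vector and ATM-vector against Dnmt1 shRNA comparisons. The ± given with a difference is the scanner software's own error for the 2 spots. None of the 3 covers the spread between cultures. A reference set held genes well above background on both arrays whose mean signal over the 2 arrays (averaged as log2) was 30 to 400. The signal on 1 of the arrays could lie outside that range. These genes were at least 2-fold higher more often than genes at large, at 9.34%, 11.4% and 10.2%. They were at least 2-fold lower in 2.69%, 9.03% and 13.5%.

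Neither calcium-binding subunit reached 2-fold in any of the 3 comparisons. Tnnc1, troponin C of slow skeletal and cardiac fibres, read 88.4, 110 and 104 on the empty-vector, Dnmt1 shRNA and ATM-vector arrays, with the empty-vector value lowest. The log2 differences from the empty-vector cells were 0.48 ± 0.25 and 0.37 ± 0.26. The ATM-vector cells lay -0.11 ± 0.24 from the Dnmt1 shRNA cells. Tnnc2, the fast skeletal troponin C, read 43.0, 66.4 and 73.9, and its empty-vector signal was 1.14 times the lowest one called well above background there. Its differences were 0.79 ± 0.36 and 0.92 ± 0.37, the second just outside 2-fold. The ATM-vector and Dnmt1 shRNA cells differed by 0.13 ± 0.28, less than the spread between probes.

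Of the inhibitory subunits only Tnni2 reached 2-fold, and only on the ATM-vector array. Tnni1, the slow skeletal troponin I, read 196, 278 and 176, higher in the Dnmt1 shRNA cells by 0.67 ± 0.21 and -0.01 ± 0.22 from the empty-vector level in the ATM-vector cells. Tnni2, the fast skeletal troponin I, read 96.3, 129 and 695, so the ATM-vector array stood apart from both others. It was 7.94-fold higher there than in the empty-vector cells (log2 2.99 ± 0.25) and 5.27-fold higher than in the Dnmt1 shRNA cells (2.40 ± 0.22). In the Dnmt1 shRNA cells its difference was 0.59 ± 0.26, under 2-fold. Of 13242 named genes compared, 110 had a larger difference than Tnni2 between the ATM-vector and empty-vector cells, with genes dim on 1 array counted at their bound. Tnni3, the cardiac troponin I and the remaining gene of the family, read 53.8, 58.4 and 60.7, with differences of 0.28 ± 0.33 and 0.31 ± 0.35.

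The tropomyosin-binding subunits included the largest difference measured on both arrays for a troponin in the Dnmt1 shRNA cells. Tnnt1, the slow skeletal troponin T, read 95.9, 364 and 173: lowest in the empty-vector cells, highest in the Dnmt1 shRNA cells and between them in the ATM-vector cells. It was 4.25-fold higher in the Dnmt1 shRNA cells (log2 2.09 ± 0.24), with 192 of 13785 named genes above it on the same count. In the ATM-vector cells it was 1.98-fold higher (0.98 ± 0.25), just outside 2-fold. The ATM-vector cells were 2.15-fold below the Dnmt1 shRNA cells (-1.10 ± 0.21), just inside it.

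Tnnt2, the cardiac troponin T, was well above background by a wide margin, at 2206, 2860 and 6533. It was 3.26-fold higher in the ATM-vector than in the empty-vector cells (1.70 ± 0.20) and 2.24-fold higher than in the Dnmt1 shRNA cells (1.16 ± 0.20, just inside 2-fold). The Dnmt1 shRNA cells were 0.54 ± 0.20 above the empty-vector cells. Its signal lay 58.3-fold or more above the lowest signal well above background on each array, so its values do not rest on dim spots.

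Tnnt3, the fast skeletal troponin T, had 2 probes. The first read 17.3 (not well above background), 40.4 and 116, and the second 7.67 (not well above background), 34.1 and 164. Both probes were lowest in the empty-vector cells and highest in the ATM-vector cells. The gene was at least 4.02-fold higher in the ATM-vector than in the empty-vector cells (3.38-fold and 4.78-fold as bounds for the separate probes) and 3.65-fold higher than in the Dnmt1 shRNA cells (1.87 ± 0.21; 2.81-fold and 4.72-fold for the separate probes). Between the Dnmt1 shRNA and empty-vector cells the bound was at least 1.10-fold. With the dim signals taken as measured, that difference was 1.85 on the log2 scale.

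Cox6a2 had the largest differences of the set. Its single probe read 41.0, 404 and 2393, in steps from the empty-vector to the Dnmt1 shRNA to the ATM-vector array. It was 11.1-fold higher in the Dnmt1 shRNA cells (3.47 ± 0.35) and 64.2-fold higher in the ATM-vector cells (6.01 ± 0.35), where 1 of 13242 named genes had a larger difference with genes dim on 1 array counted at their bound. Such a gene may exceed Cox6a2, and Hba-a1 did so in its signals as measured (log2 6.37, bound 5.88). The ATM-vector cells were 5.81-fold above the Dnmt1 shRNA cells (2.54 ± 0.20). The empty-vector signal was 1.08 times the lowest called well above background there, so the denominator of both large folds is a dim spot. Ckm read 8.15, 5.55 and 7.58, not well above background on all 3 arrays, and has no fold.

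**Figure D3:**
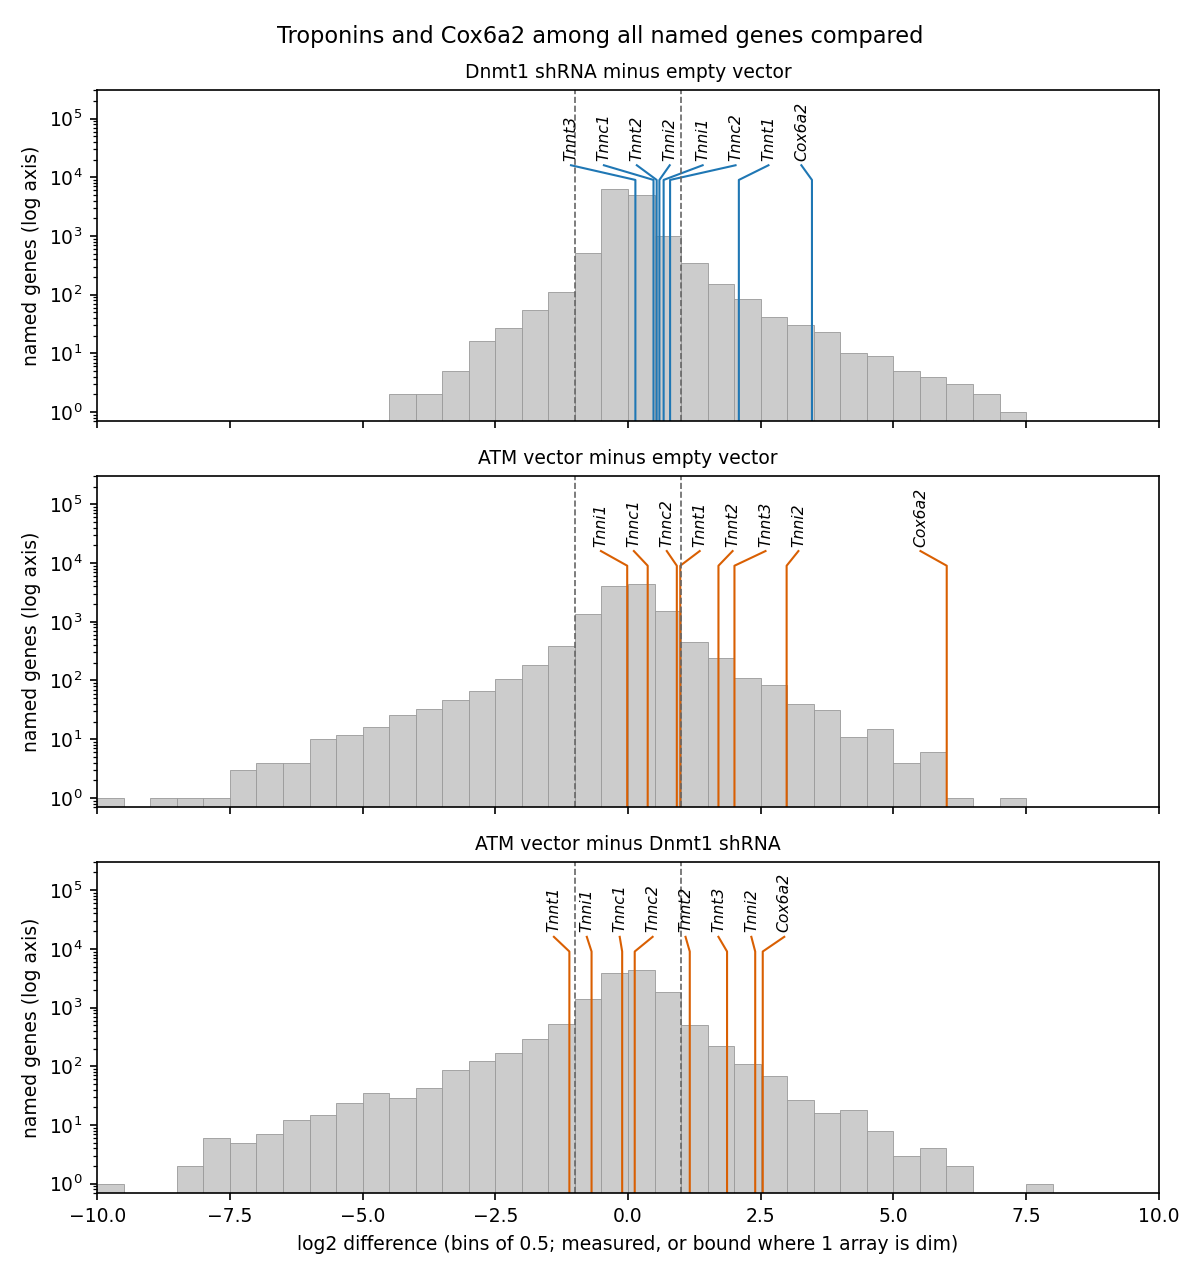
Histograms of the log2 difference of all named genes in each comparison (log axis of counts, bins of 0.5), with the troponins and Cox6a2 marked by lines and a 2-fold difference by dashed lines. In the ATM-vector against empty-vector panel Cox6a2 at 6.01 lies near the upper end, while Tnni1 at -0.01 lies in the main peak.

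The size of differences that involve dim spots depended on the background step. The normexp alternative also adds an offset of 50, which by itself draws differences between dim signals towards 0. The offset and the correction were not tested apart. With normexp correction of the raw signal, the differences of Cox6a2 from the empty-vector cells were 2.17 and 4.58, and those of Tnni2 were 0.32 and 2.18. Those of Tnnt3 were bounds of at least 0.49 and at least 1.38, and all were still above 0. With the same correction those of Tnnc2 were 0.44 and 0.44 in place of 0.79 and 0.92. Tnnt1 in the Dnmt1 shRNA cells was 1.535 in place of 2.09. Under normexp Tnnt3 was 0.89 and Tnnt1 -0.82 between the ATM-vector and Dnmt1 shRNA cells, which ended both calls. Tnnt1 also lost that call with median scaling and with quantile normalization.

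Forms of the same proteins that are not bound to muscle were detected throughout. The 2 probes of Ckb read 780, 1104 and 893, and 1671, 2379 and 1854. Ckmt1, a mitochondrial creatine kinase of non-muscle tissues, read 3345, 4197 and 3217. Ckmt2, the mitochondrial form of striated muscle, was like Ckm not well above background on all 3 arrays (8.28, 5.32 and 7.48). Cox6a1, the partner form of Cox6a2, read 255944, 222496 and 268362, with log2 differences from the empty-vector cells of -0.04 and 0.21. Of the 13 genes in a list of the troponin paralog, creatine kinases and cytochrome oxidase subunits, 11 were on in every array. Among 11 compared, 1 passed 2-fold upwards in the Dnmt1 shRNA cells (Cox6b2, the testis form of subunit 6B, 3.05-fold) and 1 in the ATM-vector cells (Cox7a1, the muscle and heart form of subunit 7A, 2.51-fold), with 0 lower in both. Cox7a1 read 137, 182 and 313, with log2 differences of 0.57 and 1.33. Cox8b, the muscle form of subunit 8, was off on all 3 arrays. The list medians were 0.25 and 0.20.

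The rest of the sarcomere was mostly off. Of 59 other sarcomere and striated muscle genes on the array, 16, 27 and 19 were well above background in the empty-vector, Dnmt1 shRNA and ATM-vector cells, and 30 were off on all 3 arrays. With 1 common detection level for the arrays, chosen after the data were seen, the counts were 16, 21 and 20. Those off everywhere included Ttn (titin), Mylpf (the fast regulatory light chain), Actn2, Tcap and the adult fast myosin heavy chains Myh1, Myh2 and Myh4. Other genes of the list were on in every array, among them Acta1 (3937, 4896 and 4551) and Myl4 (1870, 1832 and 1360). Myh7, Actn3, Atp2a1 and Tmod4 were also on in all 3. Myh3 was on in the Dnmt1 shRNA cells only, by 2 probes (73.1 and 56.1 there). Beside the counts of this and the other lists stand the shares over all genes, 5.19% higher and 1.57% lower in the Dnmt1 shRNA cells and 7.55% and 6.82% in the ATM-vector cells. In the Dnmt1 shRNA cells 27 entered the comparison, of which 2 stood higher by 2-fold or more and 1 stood lower, around a median of 0.22. Pygm, the muscle glycogen phosphorylase, was 2.66-fold higher, Myom1, an M-band protein, at least 2.37-fold higher, and Myl1, a fast essential light chain, 2.10-fold lower. The Myl1 value came from 1 probe, at 64.5 and 27.4, where signals well above background began at 25.1 in the Dnmt1 shRNA cells. Its other probe was off on all 3 arrays. In the ATM-vector cells 5 of 20 stood higher by 2-fold or more and 0 lower, around a median of 0.39. Myom2, the M-band protein of fast and cardiac fibres, read 9.60 (not well above background), 38.3 and 508 and was at least 14.8-fold higher. Myl7, the atrial light chain, read 33.6 and 21.0 (both not well above background) and 248 and was at least 7.21-fold higher. Ldb3, a Z-disc protein, Eno3, the muscle enolase, and Lmod3, a thin filament nucleator, were 2.88-fold, 2.84-fold and 2.56-fold higher, and the 2 Ldb3 probes, higher in both cases, gave unequal sizes.

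Tropomyosin and actin partners, which also serve the fibroblast cytoskeleton, were detected almost throughout. All but Tmod2 of 18 such genes were on in every array, and 0 of 17 compared reached 2-fold in the Dnmt1 shRNA cells in either direction. In the ATM-vector cells 1 of 18 was at least 2-fold higher and 0 lower. That gene was Tpm2, beta-tropomyosin, with log2 differences of 0.79 and 1.21 from the empty-vector cells. Tmod2 was at least 2.42-fold higher in the ATM-vector than in the Dnmt1 shRNA cells. The list medians were 0.00 and 0.19. The median of 19 housekeeping genes stood at -0.07 and 0.43, with 0 called in either comparison. Tfrc was 2.06-fold higher in the ATM-vector than in the Dnmt1 shRNA cells, as a mean over unequal probes. These read 29.2, 1799 and 174 in the Dnmt1 shRNA cells and 51.5, 2180 and 756 in the ATM-vector cells. In the ATM-vector cells the differences of Tnnc1 and Tnni1 lay below that housekeeping median and those of the other 6 genes compared lay above it.

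**Figure D4:**
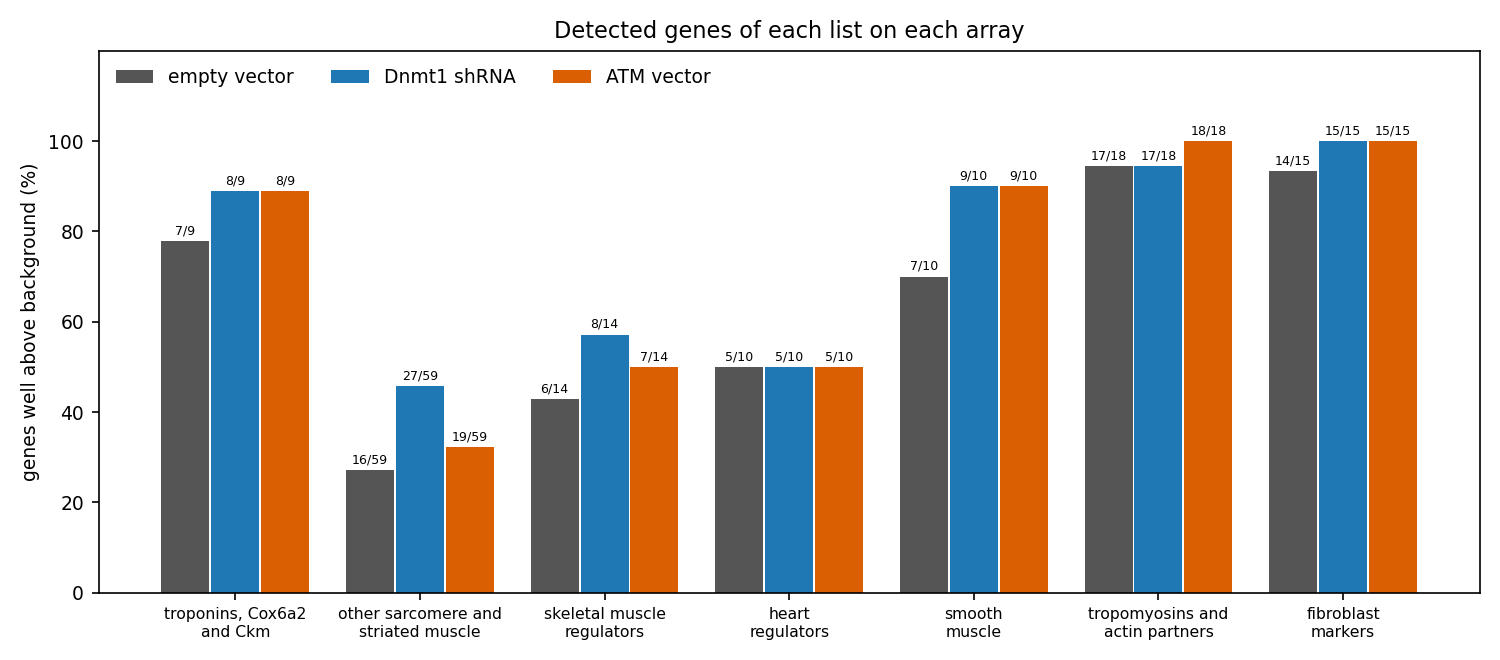
Share of each gene list well above background on each array (percent of the genes on the array, with counts over the bars). The troponin, Cox6a2 and Ckm set went from 7 of 9 to 8 of 9, the other sarcomere genes from 16 of 59 to 27 and 19, and the heart regulators stayed at 5 of 10. Over all named genes the shares were 63.7%, 68.1% and 63.3%.

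Transcription factors that drive muscle differentiation were looked for on the same arrays. Of 14 skeletal muscle regulators 6, 8 and 7 were on, and Myod1, Myf5, Myf6, Myog, Mef2c and Pax7 were off on all 3. Mef2b, a MADS-box factor, was higher in the Dnmt1 shRNA cells, at least 6.16-fold, and Pax3, a paired-box factor of muscle precursors and neural crest, at least 2.99-fold higher in the ATM-vector cells. These were the only calls against the empty-vector cells in that list, 1 higher and 0 lower in each comparison, with medians of -0.07 and 0.25. Of 10 heart regulators 5 were on in every array, and Nkx2-5, Tbx5, Hand1, Hand2 and Isl1 were off on all 3. Myocd, a cofactor of serum response factor, was 2.06-fold higher and Gata6 2.13-fold lower in the ATM-vector cells, and 0 of 5 were called in the Dnmt1 shRNA cells. The summed signal of the list relative to the 75th percentile was 9.08, 9.10 and 6.50, and that of the skeletal list was 27.5, 24.9 and 32.9. Myod1, Myog and Nkx2-5, which define skeletal and heart muscle, were thus not detected on arrays that detected the troponins.

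Smooth muscle genes also differed between the arrays. Of 10 smooth muscle markers 7, 9 and 9 were on, with a summed signal relative to the 75th percentile of 125, 150 and 187, and Myh11, the defining myosin of mature smooth muscle, was off on all 3 arrays. Acta2 and Tagln made up most of that sum. Of 9 compared, 2 stood higher by 2-fold or more and 0 lower in the Dnmt1 shRNA cells, and 4 higher and 1 lower in the ATM-vector cells. Actg2, the enteric smooth muscle actin, was 7.01-fold and 25.3-fold higher, and Des (desmin, an intermediate filament of all muscle) at least 2.81-fold and at least 6.95-fold higher. Cnn1 (calponin) and Synpo2 were 3.34-fold and 2.50-fold higher in the ATM-vector cells, where Itga8 was 2.22-fold lower. The medians were 0.32 and 0.63. The part of smooth muscle genes in the troponin differences was not tested.

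Markers of other cell types also differed between the arrays, and their part was not tested either. Fibroblast markers had a summed signal of 567, 633 and 756, where 3 of 15 stood higher by 2-fold or more and 0 lower in the Dnmt1 shRNA cells, and 1 higher and 2 lower in the ATM-vector cells. In the Dnmt1 shRNA cells these were Thy1 (at least 36.2-fold), Lum (2.49-fold) and Pdgfra (2.26-fold). S100a4 was 3.38-fold higher in the ATM-vector cells, where Lum and Dcn, which encode matrix proteoglycans, were 9.23-fold and 2.15-fold lower. Epithelial markers were on in 5, 8 and 5 of 10, with summed signals of 2.57, 3.37 and 2.70, and Epcam and Cldn4 were off on all 3. Of those compared, 4 of 8 were higher in the Dnmt1 shRNA cells, and 1 of 5 was higher and 2 were lower in the ATM-vector cells. The former were Krt18 (at least 39.8-fold), Krt8 (at least 22.0-fold), Dsp (at least 4.61-fold) and Krt14 (4.24-fold). The Dsp bound came from 1 probe, and its other probe was off on all 3 arrays. In the ATM-vector cells Krt14 was 63.1-fold higher, and Krt19 and Cldn7 were 5.41-fold and 3.21-fold lower. Of 7 endothelial and 7 blood markers 3 each were on per array, with Cdh5, Tek, Tie1 and Emcn and with Adgre1 and Lyz2 off throughout, and with summed endothelial signals of 1.05 in the empty-vector and 1.57 in the ATM-vector cells and summed blood signals of 1.80, 2.44 and 2.66. No endothelial marker was called against the empty-vector cells, and Vwf was 2.17-fold lower in the ATM-vector than in the Dnmt1 shRNA cells. Csf1r was 2.04-fold higher in the Dnmt1 shRNA cells and Hba-a1, an alpha-globin, at least 58.8-fold higher in the ATM-vector cells. The 3 Csf1r probes were unequal, at 90.1, 476 and 1997 in the empty-vector cells and 266, 408 and 4751 in the Dnmt1 shRNA cells. Of 8 neural markers 5 were on in every array (summed signals of 13.3, 16.3 and 16.5; Nefl, Gfap and Elavl3 off), with 0 called in the Dnmt1 shRNA cells and Tubb3 2.94-fold higher in the ATM-vector cells.

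The troponin I and T genes lie in pairs along the chromosomes. In the order of RefSeq genes, Tnni2 and Tnnt3 share a stretch of chromosome 7 that runs Ctsd, Syt8, Tnni2, Lsp1, Prr33, Tnnt3 and Mrpl23. In the ATM-vector cells Syt8 was higher by at least 1.98 on the log2 scale, Tnni2 by 2.99, Lsp1 by 1.47, Tnnt3 by at least 2.01 and Mrpl23 by 0.77. Ctsd, the first of them, was at -0.77, and Prr33 was off on all 3 arrays. Syt8 read 31.7 (not well above background), 51.8 and 136, and Lsp1, an actin-binding protein of leukocytes, 3395, 5599 and 8544. In the Dnmt1 shRNA cells the same genes were at 0.36 (Ctsd), at least 0.62 (Syt8), 0.59 (Tnni2), 0.89 (Lsp1), at least 0.14 (Tnnt3) and -0.02 (Mrpl23), none of them 2-fold.

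Tnni1 and Tnnt2 share a stretch of chromosome 1 that runs Csrp1, Phlda3, Tnni1, Lad1, Tnnt2 and Pkp1, and its genes gave unequal values. In the ATM-vector cells the differences were 0.17, 0.05 and -0.01 from Csrp1 to Tnni1, and 1.70 and 1.57 for Tnnt2 and Pkp1, a desmosomal plaque protein, with Lad1 between them off on all 3 arrays. In the Dnmt1 shRNA cells Tnnt2 was at 0.54 and Pkp1 at -0.57. Tnnt1 and Tnni3 are neighbours elsewhere on chromosome 7. There the Dnmt1 shRNA differences were -0.01 for Ppp1r12c, 2.09 for Tnnt1, 0.28 for Tnni3 and -0.08 for Dnaaf3, so Tnnt1 was alone among its measured neighbours in passing 2-fold. The ATM-vector differences of the same 4 genes were 0.81, 0.98, 0.31 and 0.75.

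**Figure D5:**
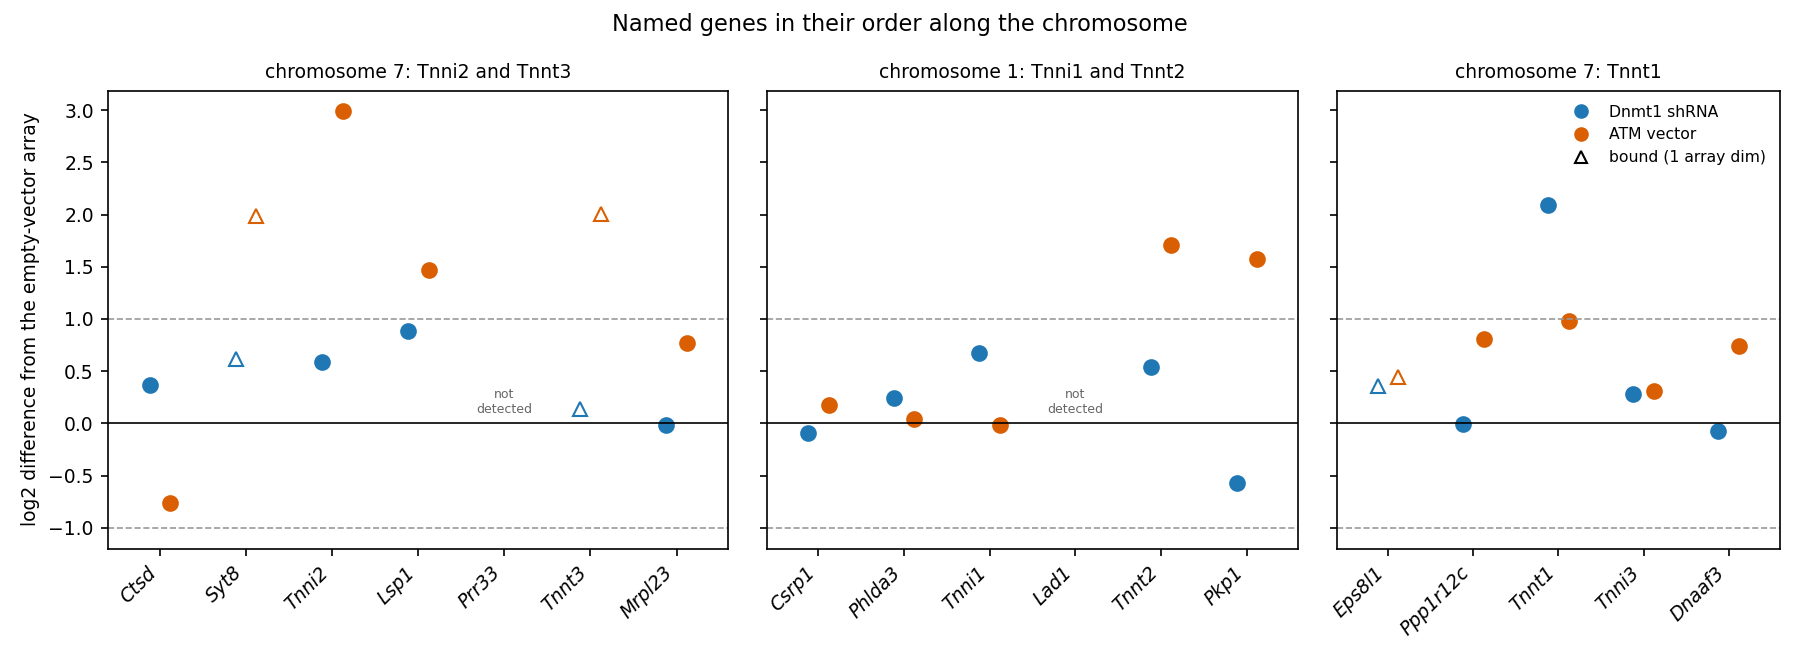
Log2 difference from the empty-vector array for named genes in their order along the chromosome (not to distance) around Tnni2 and Tnnt3, Tnni1 and Tnnt2, and Tnnt1; circles are measured values, triangles lower bounds, and dashed lines a 2-fold difference. From Syt8 to Tnnt3 the detected genes lie at 1.47 or more in the ATM-vector cells, while around Tnnt1 the Dnmt1 shRNA point at 2.09 stands alone.

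Genes with the most similar pair of differences from the empty-vector array were taken from 11701 genes measured on all 3 arrays, by Euclidean distance in the plane of the 2 log2 differences. Each rests on 3 arrays with a shared control, and nothing is read from it about function or control. For Tnni2 they were Evi2a, Ptgir and Msln, at distances of 0.023, 0.039 and 0.068. For Tnnt2 they were Exoc3l4, Nnmt and Ogfrl1 (0.071 to 0.086), and for Tnnt1 Bglap2, Odf3 and Comp (0.11 to 0.31). Cox6a2 had no near match: Krt14, Actg2 and Naip2 were closest, at 1.38, 1.49 and 1.76. Krt14 is a basal keratin. The nearest genes to Tnnc1 were Stox2, Gna15 and Rnf157, to Tnnc2 Hacd4, Ctnnal1 and Tsr2, and to Tnni1 Pnrc1, Angptl8 and Ifna2, at distances of 0.0072 to 0.089.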

How the data were processed

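RNA was measured on 3 single-colour arrays, 1 per group, with groups taken from the labels. The authors deposited Agilent Feature Extraction 10.7.3.1 output, per the submitters' processing notes. Its processed signal is a background-subtracted intensity, per the file headers, and the deposited series matrix holds the same intensity values to within 0.495% (column medians 75.2, 80.4 and 68.6; linear, uncentred, 1 array per column). The deposited flags are marks of 0 or 1 per spot, per the file headers.

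Control spots (of 44397 spots, 43020 remained) and outlier spots (228, 235 and 167) were removed, and 0 spots were saturated. The log2 signal was averaged per probe (39404 kept) and each array's 75th percentile was subtracted. A gene's difference is the mean over probes well above background on either array, or a bound where 1 array was dim. Detection used the flag for signal well above background, with the flag for a positive and significant signal as an alternative. Accessions were named through RefSeq genes of GRCm38.p6: 26412 of 39429 probes matched 1 symbol, 0 several and 13017 none. The array design was placed on mm9, so array coordinates are not given. Python 3.11.15, numpy 2.4.6, pandas 2.3.3, R 4.3.3 and limma 3.58.1 (normexp, offset 50, on the median signal, and quantile normalization) were used, and the comparison code was tested on simulated data. Precision is limited by the number of arrays, 1 per group, and no p-value is given.

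The genes, the other lists (skeletal and heart regulators, fibroblast, smooth muscle, epithelial, endothelial, blood, neural, other sarcomere, paralogs, tropomyosins and actin partners, housekeeping) and the alternatives were chosen with earlier results of these data known. Named besides the 9 genes and their closest paralogs were up to 6 called members of each list with the largest difference, the neighbours along the chromosome within 3 genes and the 3 nearest genes by pattern. Genes named as off on all arrays, and sarcomere genes named for being on, were added after their values were seen. So were further values of list members and calls between the ATM-vector and Dnmt1 shRNA cells. Of the listed genes, Smpx, Cd68 and Polr2a were not matched to a probe.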

Additional observations from a re-analysis of the deposited data

How the results depend on the processing

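Each of 24 gene differences (8 genes, 3 comparisons) was recomputed under up to 12 alternatives: 257 of 285 values moved by less than the spread between probes of a gene, 28 moved by more, and 0 called differences changed sign. Many of these values could not move. For a gene with 1 probe, on in every array, a change of filter, flag or probe choice returns the same value. The share that stayed is therefore no measure of stability. The count of genes at least 2-fold lower in the ATM-vector than in the Dnmt1 shRNA cells was 1 (Tnnt1) and became 0 with normexp background, median scaling, quantile normalization or a 3-fold limit. Differences under 2-fold changed sign for Tnnc1 (-0.17 to 0.15) and Tnnc2 (-0.01 to 0.37) between those cells. Measured values in place of bounds, or no filter on dim probes, added Tnnt3, for 3 genes higher in the Dnmt1 shRNA cells. Over all settings that had a value, Cox6a2 ranged from 2.17 to 3.51 in the Dnmt1 shRNA cells and from 4.58 to 6.01 in the ATM-vector cells, and Tnni2 from 2.18 to 2.99 in the latter. With probes well above background on all 3 arrays, Tnnt3 has no value. One detection level for all arrays, chosen after seeing the data, left the counts of the 9 genes as they were and gave 16, 21 and 20 other sarcomere genes on in place of 16, 27 and 19. The flag for a positive and significant signal gave 8, 9 and 8 of the 9 genes on. Median scaling moved the median of all genes to -0.24 in the Dnmt1 shRNA against empty-vector comparison and to 0.21 in the ATM-vector against Dnmt1 shRNA comparison. Normexp was planned on the mean signal and run on the median signal. No paired analysis was possible because each group had 1 array, and leaving out an array leaves no comparison. Signals within a few-fold of the lowest signal well above background, as for Tnnc2, Tnnt3 and the empty-vector value of Cox6a2, limit the differences of those genes.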

Other observations

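Neighbours of the single genes along their chromosomes were measured too. Around Cox6a2 on chromosome 7, Itgad was off on all 3 arrays and Armc5 differed from the empty-vector cells by 0.02 in the Dnmt1 shRNA cells and 0.61 in the ATM-vector cells, where Cox6a2 itself stood at 3.47 and 6.01. Around Ckm, also on chromosome 7, Klc3 was at 0.86 and -0.47 and Mark4 at 0.07 and 0.31, while Ckm between them was off on all 3 arrays. Beside Tnnc1 on chromosome 14, Nisch was at -0.07 and -0.23 and Sema3g at 0.27 and 0.67, and Phf7, the second gene on the Sema3g side, stood at -0.33 and -1.01. Beside Tnnc2 on chromosome 2, Ube2c was at -0.43 and -0.26 and Snx21 at -0.21 and 0.19. Among these neighbours Phf7 was the 1 gene past 2-fold against the empty-vector cells, lower in the ATM-vector cells, and was added after its value was seen. Between the ATM-vector and Dnmt1 shRNA cells Klc3 stood at -1.53.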
